A study of Mus musculus with 6 samples.

Results

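Genes of cholesterol synthesis, transport and turnover were compared between the prefrontal cortex of BTBR T+ Itpr3tf/J and C57BL/6J mice. The group holds 37 genes in 4 roles, of the 20023 genes named on the array: 17 of synthesis, 5 of the SREBP control of synthesis, 12 of transport and storage, and 3 of oxysterol breakdown. Members were taken by symbol, and every array probe that carries a member's name was kept, which gave 66 of 41174 probes. All 37 genes were found under their current symbols. A probe was tested where it was well above the array's background on at least 3 of the 6 arrays, and 65 of the 66 were.

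Total RNA of whole prefrontal cortex was hybridised to 6 one-colour Agilent arrays, 1 array for each mouse. C57BL/6J, the common reference inbred strain, gave 3 male mice labelled wild type. BTBR T+ Itpr3tf/J, an inbred line that is used to model autism for its low sociability and lacks a corpus callosum, gave another 3 male mice. All 6 mice were 5 months old and received no drug, and none carries a transgene per the labels. The genotype and title of the BTBR samples name that strain, while their field for strain background reads C57BL/6J. The comparison is between inbred strains, which differ at many loci, so no single allele is tested.

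Brain cholesterol is made within the brain, because the blood-brain barrier keeps out lipoprotein cholesterol. The mevalonate pathway builds squalene and then lanosterol from acetyl-CoA, and a chain of sterol enzymes turns lanosterol into cholesterol. SREBP transcription factors, held in the endoplasmic reticulum by Scap and the Insig proteins while sterol is plentiful, turn on these genes when sterol runs low. Astrocytes pass cholesterol to other cells on apolipoprotein E particles through ABC transporters, myelin stores most of it, and neurons hydroxylate the excess to oxysterols that leave the brain.

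Levels are given on the log2 scale relative to the 75th percentile of each array's signal, so 0 is that percentile and 1 unit is a doubling. Levels of different probes are not set against each other, since probes differ in how well they bind. Differences are BTBR minus C57BL/6J with the standard error (SE) of the limma fit, and a probe was called where the p-value adjusted over all 30011 tested probes (Benjamini-Hochberg) was under 0.05. Errors beside means are SD over 3 mice. Between 28100 and 30665 probes per array were well above background, 68.2% to 74.5%, and no member was saturated. The 75th percentile signal was 1607, 1244 and 1209 in the C57BL/6J mice and 919, 859 and 1184 in the BTBR mice. Every BTBR array was thus dimmer than every C57BL/6J array, and had fewer probes well above background. Array brightness and strain therefore cannot be told apart. Slide 1 held mice 1 and 2 of each strain and slide 2 held mouse 3 of each, so differences within slides are also given, with no test on slide 2.

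Cyp39a1, an oxysterol hydroxylase, was lower in BTBR at both of its probes, by 5.06-fold and 5.75-fold. Hmgcs1, the HMG-CoA synthase at the head of the mevalonate pathway, was lower by 2.06-fold at 1 of its 3 probes. Sc5d, the sterol desaturase near the end of the pathway, was called at both probes in opposite directions. Soat1, which esterifies cholesterol for storage, was higher at 1 of 3 probes. In bulk tissue such as this, fewer cells of a type and less RNA per cell cannot be told apart. The other 33 genes had no called probe. In all, 6 of 65 member probes were called (9.23%), against 1632 of all 30011 probes (5.44%). Lower calls were 4 among members, against 3.25% of all probes, and higher calls were 2, against 2.19%. The mean was lower in BTBR at 41 of the 65 member probes, against 42.8% of all tested probes. The median difference over the 65 probes was -0.08, and over all tested probes it was 0.04. With each gene read at its brightest probe only, 4 of the 37 members were lower (Cyp39a1, Hmgcs1, Sc5d and Npc1) and none was higher, against 5.64% of 16053 genes called in either direction and 3.47% called lower. With each gene read as the mean of its probes, 2 of the 37 were lower (Cyp39a1 and Npc1) and none was higher. In that reading 5.97% of 16053 genes were called in either direction. With normexp background correction of the raw spots in place of the scanner's own correction, no member probe passed the test. Under it 6 member probes had an unadjusted p under 0.05, and 170 of all probes were called by limma (0.566%). The median difference was then -0.06 over the member probes and -0.09 over all tested probes, the reverse order.

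**Figure D1:**
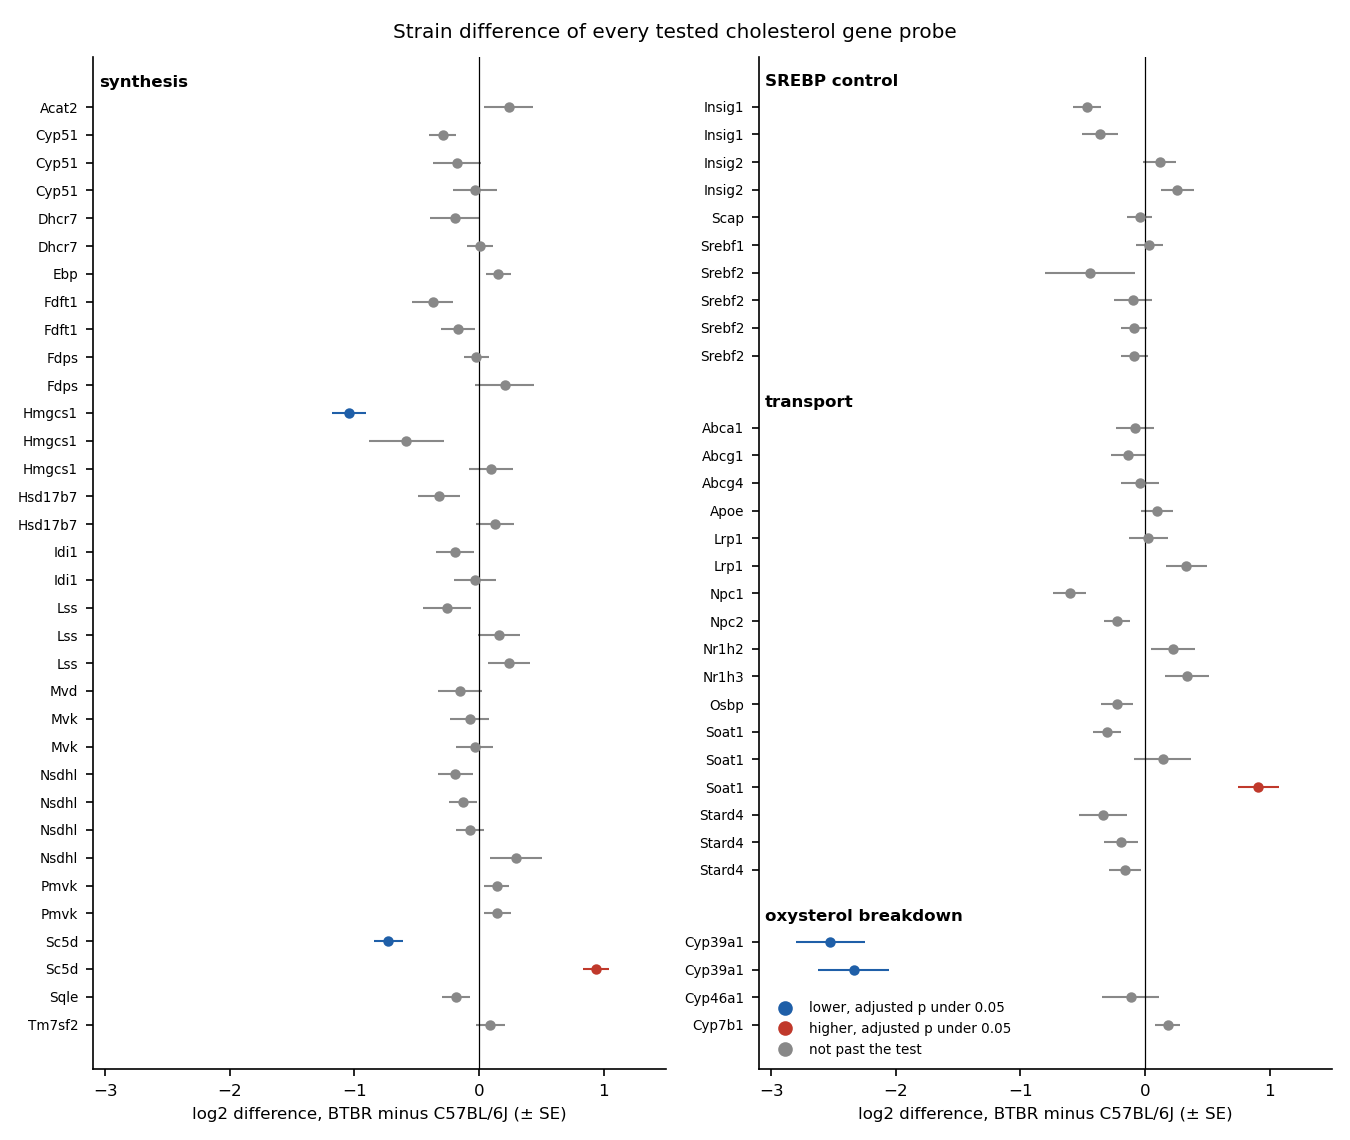
Difference between the strains (log2, BTBR minus C57BL/6J) at each of the 65 tested member probes, grouped by role, with bars of 1 SE of the limma fit. Most points lie within 0.5 of 0. Both Cyp39a1 probes lie beyond -2, and Hmgcs1, Sc5d and Soat1 each have probes far apart.

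Among the 34 probes of the 17 synthesis genes, 2 were lower, 1 was higher and 31 were not called. That is 8.82% called, against 5.44% of all tested probes. The mean was lower in BTBR at 21 probes and the median difference was -0.05. Ranges of the strains did not overlap at 5 probes with BTBR below and 3 with BTBR above. For comparison, 11% of all tested probes had BTBR wholly below and 11.9% wholly above.

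Hmgcs1 condenses acetoacetyl-CoA and acetyl-CoA to HMG-CoA and is a classical SREBP target. At probe A_51_P146941 its level was 4.38, 4.45 and 4.08 in the C57BL/6J mice and 3.38, 3.24 and 3.15 in the BTBR mice. All BTBR values lay below all C57BL/6J values. The means were 4.30 ± 0.19 and 3.26 ± 0.12 (SD, n = 3 each). The difference was -1.05 ± 0.14 (SE, limma adjusted p = 0.00845), with a 95% confidence interval of -1.38 to -0.71. It was -1.10 on slide 1 and -0.93 on slide 2.

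The other Hmgcs1 probes did not pass the test. Probe A_52_P119039 read -3.88, -3.52 and -4.53 in C57BL/6J and -4.15, -4.76 and -4.78 in BTBR. These ranges overlap, and the difference was -0.58 ± 0.30 (limma adjusted p = 0.409). Probe A_52_P388072 read -2.67, -2.20 and -2.68 in C57BL/6J and -2.37, -2.26 and -2.63 in BTBR, a difference of 0.10 ± 0.18 (limma adjusted p = 0.864). The file places the 3 Hmgcs1 probes on the minus strand of mm9 13_random, a sequence apart from chromosome 13 itself. Along that strand, A_52_P388072 lies 3770 bases and the called probe 6630 bases downstream of A_52_P119039. The called probe is therefore the most 3′ of the set. It and A_52_P388072 are annotated to a RefSeq transcript, and A_52_P119039 to another cDNA record. When the 3 probes were averaged into 1 value per gene, Hmgcs1 was not called (-0.51, limma adjusted p = 0.217).

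Sc5d puts in the double bond of the B ring in the last steps of synthesis. At probe A_51_P418056 its level was 2.32, 2.43 and 2.12 in C57BL/6J and 1.59, 1.56 and 1.53 in BTBR. BTBR was below C57BL/6J in every mouse, by 0.73 ± 0.12 (limma adjusted p = 0.0182; 95% confidence interval of the difference -1.01 to -0.44). This call was lost when any single mouse other than C57BL/6J mouse 3 was left out, with adjusted p-values of 0.0528 to 0.0895 in limma. At probe A_52_P67637, 2770 bases further 3′ on mm9 chromosome 9, the level was 1.16, 1.15 and 1.21 in C57BL/6J and 2.23, 2.02 and 2.09 in BTBR. Here BTBR was above C57BL/6J in every mouse, by 0.94 ± 0.10 (limma adjusted p = 0.00404; interval 0.69 to 1.19). Averaged over both probes the gene differed by 0.11 (limma adjusted p = 0.64). Sc5d thus has no single direction on this array. The lower probe is annotated to a RefSeq transcript and the higher probe to another cDNA record. Whether both read the same transcript was not tested.

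The probes of Hmgcs1 and Sc5d are shown because those of 1 gene gave different answers. Each line is the central stretch of the printed oligo, from base 16 to base 45 of 60, written in the sense of the transcript, all in lower case since no part is singled out.
Hmgcs1 A_52_P119039: tgactggagtgagaatctttgtgaacgacc
Hmgcs1 A_52_P388072: aacagcaagtttatgtgaccttaaatcaag
Hmgcs1 A_51_P146941: gtaattttaacgtttgggtgccaagaagtg
Sc5d A_51_P418056: attgtacttcctatacagaggcaccttact
Sc5d A_52_P67637: ggcagtacaattctgtcttgacatttctat
Which exon or UTR each probe lies in was not determined here, because the annotation used has another build than the probe positions. Whether the strains differ in sequence under the probes of Hmgcs1, Sc5d, Soat1 and Cyp39a1, which would change what a difference at a probe measures, was not tested.

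**Figure D2:**
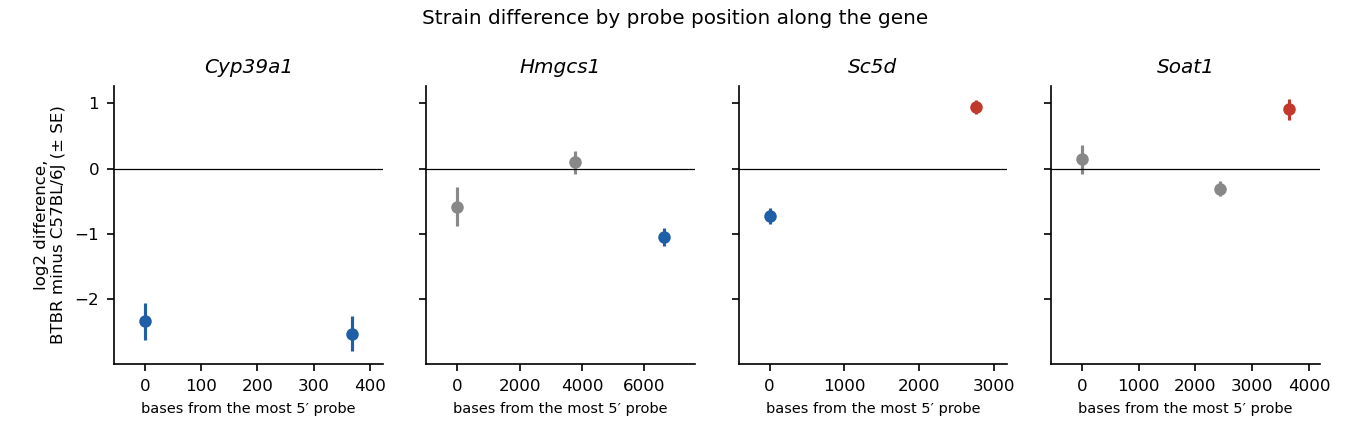
Difference between the strains (log2, BTBR minus C57BL/6J, with bars of 1 SE) at each probe of the 4 genes with a called probe, against the distance in bases from the gene's most 5′ probe. The Cyp39a1 probes, at -2.34 and -2.52, lie within their errors of each other, while Sc5d turns from -0.73 to 0.94 over 2770 bases.

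The promoters of the called synthesis genes are printed because SREBP acts through short motifs there. They are the 250 bases before the RefSeq start in GRCm38.p6, Hmgcs1 at chr13:119690101-119690350 on the plus strand and Sc5d at chr9:42264301-42264550 on the minus strand. Capitals mark the SRE-type motif TCACCCCAC, the NF-Y motif CCAAT (read as ATTGG where it lies on the opposite strand) and the E-box CACGTG, each searched on both strands.
Hmgcs1: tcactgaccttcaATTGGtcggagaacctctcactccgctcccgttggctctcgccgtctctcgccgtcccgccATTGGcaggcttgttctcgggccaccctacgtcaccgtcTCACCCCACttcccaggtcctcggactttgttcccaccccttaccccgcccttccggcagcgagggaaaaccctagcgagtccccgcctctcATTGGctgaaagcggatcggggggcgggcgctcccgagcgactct
Sc5d: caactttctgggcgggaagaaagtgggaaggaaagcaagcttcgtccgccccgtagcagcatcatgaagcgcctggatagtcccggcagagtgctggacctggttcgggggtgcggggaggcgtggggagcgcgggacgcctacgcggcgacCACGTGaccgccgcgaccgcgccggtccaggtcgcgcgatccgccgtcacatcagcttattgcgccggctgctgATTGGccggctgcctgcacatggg
The Hmgcs1 window held TCACCCCAC with 128 bases between it and the start, and CCAAT at 3 places on the opposite strand. The Sc5d window held CACGTG and 1 CCAAT, and no match to TCACCCCAC. RefSeq promoters were found for 28 of the 37 members. The 9 without one, Abcg1, Abcg4, Cyp39a1, Cyp7b1, Fdft1, Fdps, Npc1, Sqle and Stard4, were not searched. Of the 28, 1 held TCACCCCAC (Hmgcs1), against 0.555% of 27025 genes, 21 held CCAAT, against 37.5%, and 6 held CACGTG, against 6.86%. The GC-box GGGCGG was in 23 of the 28, against 35.4% of all genes. None held the LXR element in the form searched (AGGTCA, 4 bases of any kind, AGGTCA), which 4 genes held in all. The 27025 genes are all symbols with a promoter, whatever the type of gene, and were not matched to the members. A match in these letters is a description of the sequence only.

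The rest of the synthesis genes had no called probe. Cyp51, the lanosterol demethylase, had the smallest p of these. At probe A_52_P164161 its level was -1.82, -1.88 and -1.83 in C57BL/6J and -2.01, -2.12 and -2.27 in BTBR. The groups did not overlap, and the difference was -0.29 ± 0.11 (limma adjusted p = 0.25). Its other probes differed by -0.18 and -0.03. Fdft1, squalene synthase, read -4.51, -4.46 and -4.60 in C57BL/6J and -4.67, -5.22 and -4.79 in BTBR at probe A_52_P136138. BTBR lay wholly below C57BL/6J at both of its probes, with differences of -0.37 ± 0.16 (limma adjusted p = 0.328) and -0.17.

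Differences at the remaining mevalonate and squalene enzymes were small and of either sign. They were 0.24 for Acat2, which makes acetoacetyl-CoA, -0.04 and -0.08 for the mevalonate kinase Mvk, and 0.14 at both probes of the next kinase, Pmvk. Mvd, the decarboxylase, differed by -0.15, the isomerase Idi1 by -0.03 and -0.19, and the farnesyl diphosphate synthase Fdps by -0.02 and 0.21. Sqle, the squalene epoxidase, differed by -0.18, with levels of 2.61, 2.66 and 2.40 in C57BL/6J and 2.44, 2.33 and 2.36 in BTBR. None of these passed the test.

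Apart from Sc5d, the later sterol enzymes, Cyp51 among them, likewise gave no call. Lss, the lanosterol cyclase, differed by 0.24, -0.26 and 0.16 at its 3 probes, and Nsdhl, which takes part in removing the methyl groups, by 0.29, -0.19, -0.13 and -0.07. Hsd17b7, the ketone reductase of that step, differed by 0.13 and -0.32, the reductase Tm7sf2 by 0.09, the isomerase Ebp by 0.15 and the final reductase Dhcr7 by 0.01 and -0.19. Ebp had BTBR wholly above C57BL/6J, with 3.28, 3.23 and 3.23 against 3.34, 3.38 and 3.49. Its 95% confidence interval of -0.08 to 0.39 includes 0.

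**Figure D3:**
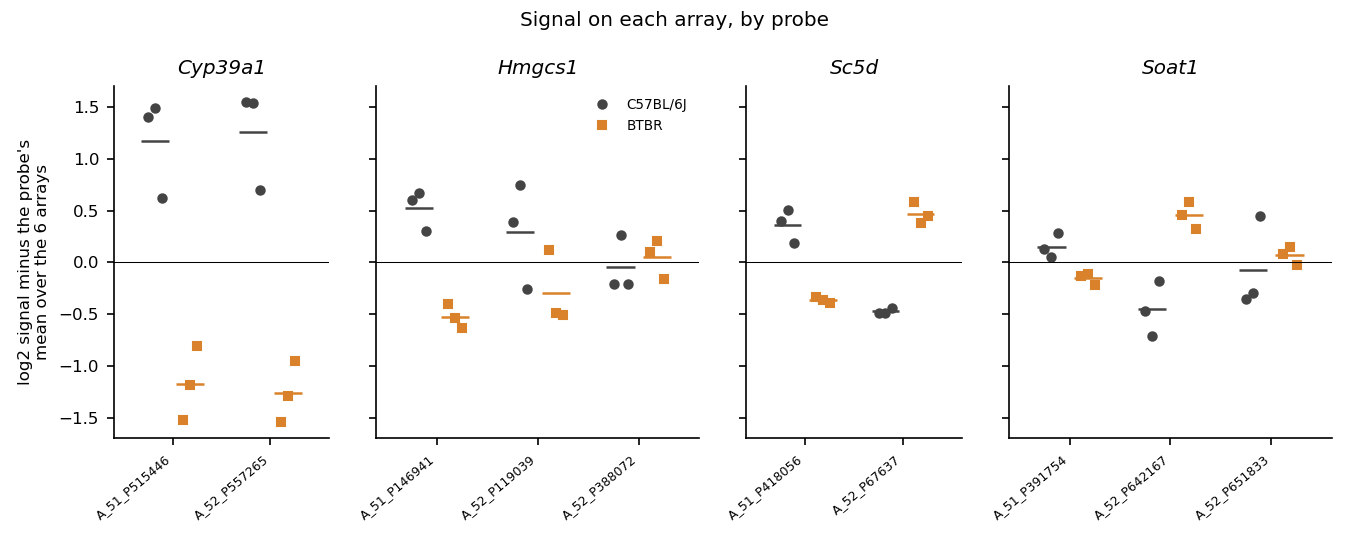
Deviation of each mouse (log2) from the mean of the 6 mice, at each probe of the 4 genes with a called probe, with C57BL/6J as circles, BTBR as squares and the strain means as short lines. The strains separate at both Cyp39a1 probes, at both Sc5d probes in opposite directions, at 1 Hmgcs1 probe and at 2 Soat1 probes in opposite directions.

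None of the 10 probes of the 5 SREBP control genes was called by limma, and 2 had an unadjusted p under 0.05, against 16.8% of all tested probes. Both of these belong to Insig1, which holds the SREBP-Scap complex in the endoplasmic reticulum and is itself an SREBP target. At probe A_52_P393392 it read -2.04, -2.10 and -2.17 in C57BL/6J and -2.44, -2.70 and -2.56 in BTBR. At probe A_51_P290207 it read -1.02, -0.96 and -1.12 in C57BL/6J and -1.21, -1.65 and -1.33 in BTBR. The BTBR mice lay wholly below at both probes. The differences were -0.46 ± 0.11 (limma adjusted p = 0.0788) and -0.36 ± 0.14 (limma adjusted p = 0.277).

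Insig2, the isoform that is not under SREBP control, read 0.28, 0.25 and 0.37 in C57BL/6J and 0.40, 0.78 and 0.49 in BTBR at probe A_52_P113250. BTBR lay above, by 0.26 ± 0.13 (limma adjusted p = 0.413), and the second probe differed by 0.12. Scap, the sterol sensor, read 4.23, 4.10 and 4.18 against 4.13, 4.16 and 4.09, a difference of -0.04 with an interval of -0.28 to 0.19. Srebf1, whose product chiefly drives fatty acid genes, differed by 0.03 with an interval of -0.23 to 0.30. Srebf2, whose product chiefly drives cholesterol genes, differed by -0.10, -0.09 and -0.09 at 3 probes. At the fourth, A_52_P302001, it read -5.38, -3.94 and -5.15 in C57BL/6J and -5.31, -5.27 and -5.22 in BTBR, with overlapping ranges and a difference of -0.44 ± 0.36 (limma adjusted p = 0.643). Over the 10 probes the median difference was -0.09, and the mean was lower in BTBR at 7.

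Of 17 tested probes of the 12 transport and storage genes, 1 was higher and none was lower. That is 5.88% called, near the 5.44% of all tested probes. The higher probe belongs to Soat1. At A_52_P642167, the most 3′ of the set, it read -3.60, -3.84 and -3.31 in C57BL/6J and -2.67, -2.55 and -2.81 in BTBR. BTBR lay wholly above, by 0.91 ± 0.16 (1.88-fold, limma adjusted p = 0.0272; interval 0.52 to 1.30). The within-slide differences were 1.11 and 0.50. The call was lost when C57BL/6J mouse 1 or 2, or BTBR mouse 1 or 2, was left out, with adjusted p-values of 0.0861 to 0.115 in limma. It was also lost with no filter on dim probes (limma adjusted p = 0.0622) and in the mean of the gene's probes (limma adjusted p = 0.498).

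The other Soat1 probes did not show the same difference. A_51_P391754 read -0.62, -0.69 and -0.46 in C57BL/6J and -0.87, -0.85 and -0.96 in BTBR, wholly below, by 0.31 ± 0.11 (limma adjusted p = 0.223). A_52_P651833 differed by 0.14 ± 0.23 and its groups overlapped. Under normexp correction the called probe's difference was 0.22. The central stretches of the 3 probes, from the most 5′ to the most 3′ over 3645 bases, are shown for the same reason as above.
Soat1 A_52_P651833: cagtcggaaaaggccaatctggaacatcat
Soat1 A_51_P391754: aatggctcctaaggctccagaagctggctt
Soat1 A_52_P642167: cttagcattcaaagagcgtcttaggacaac

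Npc1, the lysosomal membrane protein that lets cholesterol leave lysosomes, read -0.26, 0.09 and -0.01 in C57BL/6J and -0.58, -0.78 and -0.63 in BTBR at probe A_51_P349341. The strains did not overlap. The difference was -0.60 ± 0.13, with an interval of -0.92 to -0.29, and it missed the threshold (limma adjusted p = 0.0551). It passed in 6 of 21 alternative settings, including the authors' own normalised values (adjusted p = 0.0344 in limma). A second Npc1 probe was not well above background on any array and was not tested. Npc2, the soluble partner that hands cholesterol to Npc1, read 1.99, 2.08 and 2.14 in C57BL/6J and 1.95, 1.81 and 1.78 in BTBR. It lay wholly below in BTBR, by 0.22 ± 0.11 (limma adjusted p = 0.367).

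Lipoprotein and efflux genes did not pass the test. Apoe, the main brain apolipoprotein, read 7.35, 7.6 and 7.69 in C57BL/6J and 7.73, 7.65 and 7.55 in BTBR, a difference of 0.10 with an interval of -0.21 to 0.41. The efflux transporters differed by -0.08 (Abca1), -0.14 (Abcg1) and -0.04 (Abcg4). Their regulators, the LXR genes Nr1h2 and Nr1h3, differed by 0.22 and 0.34, the latter with overlapping ranges (limma adjusted p = 0.414). Lrp1, an apolipoprotein E receptor, differed by 0.03 at one probe. At A_52_P202045 it read -3.02, -3.19 and -3.24 in C57BL/6J and -2.82, -2.54 and -3.1 in BTBR. These ranges overlap, and the difference was 0.33 ± 0.16 (limma adjusted p = 0.396). The sterol carriers Stard4 (-0.16, -0.19 and -0.34) and Osbp (-0.23) were not called. The Stard4 probe A_52_P561205 was well above background in 2 of 3 BTBR mice only. For the 17 probes the median difference was -0.08.

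Of the 4 probes of the 3 oxysterol breakdown genes, 2 were lower (50%, against 3.25% of all tested probes), both of Cyp39a1. The enzyme adds a hydroxyl group to the oxysterol that Cyp46a1 makes, on the way to bile acids. At A_51_P515446 it read -1.10, -1.01 and -1.87 in C57BL/6J and -4.02, -3.67 and -3.30 in BTBR. At A_52_P557265 it read -0.64, -0.64 and -1.48 in C57BL/6J and -3.72, -3.48 and -3.14 in BTBR. Every BTBR value lay below every C57BL/6J value at both probes. C57BL/6J mouse 3 was the lowest of its strain and BTBR mouse 3 the highest of its strain, both on slide 2.

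The means at A_51_P515446 were -1.32 ± 0.48 in C57BL/6J and -3.66 ± 0.36 in BTBR (SD, n = 3 each). The difference was -2.34 ± 0.29 (limma adjusted p = 0.0061), with an interval of -3.03 to -1.65. At A_52_P557265 it was -2.52 ± 0.27 (limma adjusted p = 0.00369), with an interval of -3.18 to -1.87. On slide 1 the differences were -2.79 and -2.96, and on slide 2 they were -1.43 and -1.65. Under normexp correction they were -1.64 and -1.88, with limma adjusted p-values of 0.109 and 0.0744. In the authors' own values they were -1.14 and -1.44 and passed the test (limma adjusted p = 0.0159 and 0.0117).

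The Cyp39a1 probes are 368 bases apart, at chr17:43887005-43887064 and chr17:43887373-43887432 of mm9, both on the plus strand. Their central stretches are given because both found the largest difference among the members.
Cyp39a1 A_51_P515446: actggctcatggatttcaaatctgaggacc
Cyp39a1 A_52_P557265: agtgctcagaaatgtagataaatagtgttt

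Cyp46a1, the neuronal hydroxylase that starts cholesterol removal from the brain, read 1.29, 1.56 and 1.72 in C57BL/6J and 1.46, 0.98 and 1.77 in BTBR. The groups overlapped, and the difference of -0.12 ± 0.23 had an interval of -0.66 to 0.43. Its sign turned to 0.10 when BTBR mouse 2 was left out. Cyp7b1, another oxysterol hydroxylase, read 0.64, 0.65 and 0.61 in C57BL/6J and 0.72, 0.90 and 0.82 in BTBR. BTBR lay above, by 0.18 ± 0.10 (limma adjusted p = 0.446), with an interval of -0.06 to 0.43. The median of -1.23 over these 4 probes is set by the Cyp39a1 pair. With 1 probe per gene it was -0.12.

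Further genes of the same pathways were read beside the members. Mylip, a ubiquitin ligase that degrades lipoprotein receptors, had BTBR wholly above C57BL/6J at both probes, with differences of 0.61 and 0.70, and did not pass the test (limma adjusted p = 0.0625 and 0.108).

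Among 50 tested probes of 29 more transport genes, 1 was higher (2%, against 5.44% of all probes called) and none was lower, with a median of 0.01. Lrp8, a receptor for reelin and apolipoprotein E, read -3.01, -2.99 and -3.00 in C57BL/6J and -2.14, -2.42 and -2.52 in BTBR at this probe. It was higher in BTBR by 0.64 ± 0.13 (1.56-fold, limma adjusted p = 0.0396), and differences at the remaining Lrp8 probes were 0.58 and 0.25. Not called were the apolipoprotein Apod (-0.50), the oxysterol-binding protein gene Osbpl6 (0.32) and the sterol carrier Stard5 (0.40 and 0.26).

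Of 16 probes of 8 more synthesis genes none was called by limma and 4 had an unadjusted p under 0.05, beside the 16.8% of all probes given above, with a median of -0.09. For Ggps1, which makes the geranylgeranyl diphosphate of the isoprenoid branch, the differences were -0.43 (limma adjusted p = 0.0651), -0.34 and -0.33, and for Dhdds, of the dolichol branch, they were 0.29 and -0.15. None of the 11 probes of 8 more oxysterol and steroid genes was called by limma, and 0 had an unadjusted p under 0.05. Those of smallest p were Star (0.24 and 0.17), Ch25h (0.59), Cyp11a1 (0.31 and 0.26) and Tspo (-0.12 and -0.10).

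Markers of cell types were read beside these results. Of 27 tested oligodendrocyte and myelin probes (15 genes), 9 were lower, of 7 genes (Mog, Mobp, Mag, Aspa, Opalin, Fa2h and Cldn11), none was higher, and the mean was lower at 26. The exception was an Mbp probe with BTBR wholly above C57BL/6J, by 0.47 ± 0.14 (limma adjusted p = 0.134). The summed level of the 27 probes, in multiples of the 75th percentile signal, was 184.5 to 230.8 in C57BL/6J and 136.7 to 158.8 in BTBR. The median difference of these probes was -0.64, and it was -0.68 on slide 1 and -0.51 on slide 2. The part of oligodendrocyte RNA in the differences of Cyp39a1, Hmgcs1, Npc1 and Insig1 was not tested.

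Of all tested probes, 3.25% were called lower and 5.44% in either direction. The share called in either direction was 33.3% for the oligodendrocyte and myelin probes and also 33.3% for the microglial probes. It was 3.57% for astrocyte, 13.6% for neuronal and 11.8% for endothelial and pericyte probes. Astrocyte probes summed to 297.4 to 343.3 in C57BL/6J and 292.5 to 316.7 in BTBR, with 1 of 28 lower, and neuronal probes to 434.1 to 477 and 438.9 to 445.2, with 3 of 22 lower. Microglial markers gave 4 lower and 1 higher of 15, with sums of 45.2 to 54.4 and 41.9 to 48.7. Endothelial and pericyte markers gave 2 higher of 17. Striatal markers stood far apart in C57BL/6J mouse 3, with a sum of 265 against 30.2 and 39.4 in its strain, and in BTBR mouse 2, with 71.5 against 16.8 and 20.7. Choroid plexus markers were highest in C57BL/6J mouse 1, at 6.95, against 0.4 to 2.25 in the other mice. Without C57BL/6J mouse 3 and BTBR mouse 2, a setting chosen after the data were seen, the same counts of 4 lower and 2 higher member probes passed.

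**Figure D4:**
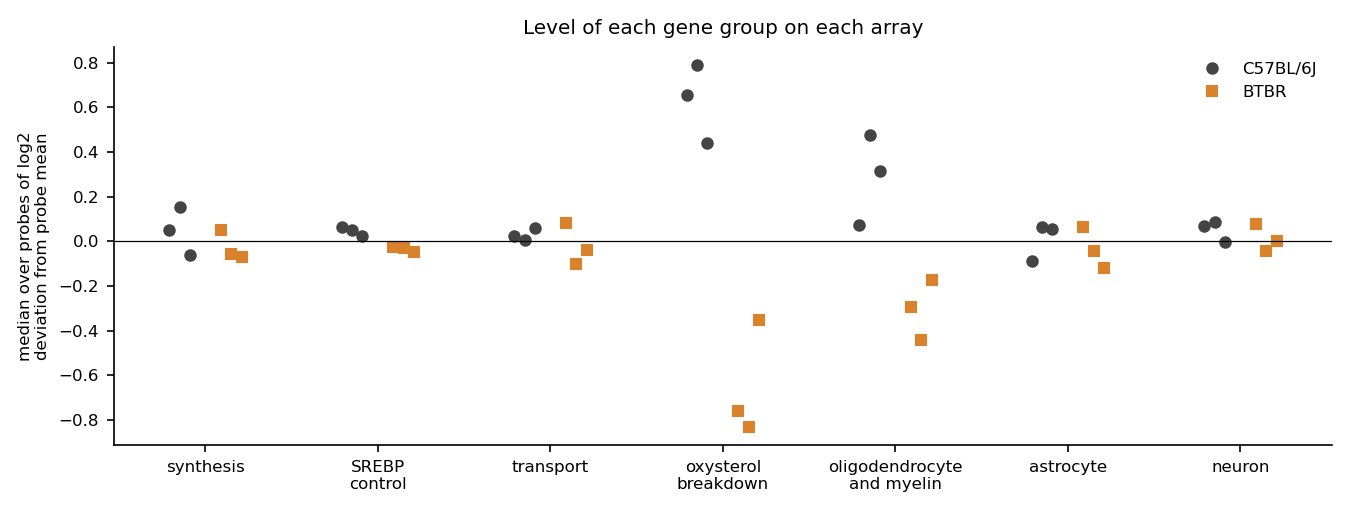
Median deviation (log2) of the probes of each role, and of oligodendrocyte, astrocyte and neuron markers, from the probe's mean over the 6 mice, 1 point per mouse. SREBP control, oxysterol breakdown and the myelin markers place all C57BL/6J mice above 0 and all BTBR mice below. No SREBP control probe was called, and the oxysterol breakdown values are set by the Cyp39a1 pair. Synthesis and transport probes overlap between strains.

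Per mouse, the median deviation of the synthesis probes was 0.05, 0.15 and -0.06 in C57BL/6J and 0.05, -0.06 and -0.07 in BTBR, with overlapping ranges. The SREBP control probes gave 0.07, 0.05 and 0.02 against -0.03, -0.03 and -0.05, which do not overlap. None of these 10 probes was called, and their median difference was -0.09, but -0.014 under normexp correction. Transport probes gave 0.03, 0.01 and 0.06 against 0.08, -0.10 and -0.04. For the myelin markers the values were 0.07, 0.48 and 0.32 against -0.30, -0.44 and -0.17.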

How the data were processed

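The deposited scanner files hold spot intensity on a linear scale, background-subtracted. Per the file headers the software was Agilent's Feature Extraction in version 10.7.3.1, and per the submitters' processing notes it was 9.1. The authors' series matrix holds log2 values of unstated scaling, with column medians of 8.82 to 8.83, and served as an alternative only. Log2 processed signals were scaled by subtracting the 75th percentile of the 41174 probes on that array. Outlier-flagged spots (54 to 107 on an array) were dropped if the probe had another spot, and replicate spots were averaged. Probes well above background on at least 3 arrays (30011) were fitted with limma 3.58.1 in R 4.3.3 (lmFit, eBayes), with Benjamini-Hochberg adjustment over all of them. Tables and figures used data.table (1.17.8), Python (3.11.15) and matplotlib (3.10.9). With 3 mice a strain an exact permutation test cannot go below 0.1, so none was used. The number of arrays limits the precision. Probe positions are mm9, per the file headers, and promoters are RefSeq GRCm38.p6. The fit was tested on simulated data. The members and lists were chosen with earlier results of these data known. Every member is named. Values on every array are given for called probes and, in each role, for up to 4 members with the smallest p, and for some members beyond this rule. Of the further pathway genes, those called and up to 4 a list with the smallest p are named, except that some genes and the counts that turn on them are not reported here. Alternatives covered background correction, scaling, the filter, spot flags, probe choice, prior, array weights, blocks and leaving out mice.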

Additional observations from a re-analysis of the deposited data

How the results depend on the processing

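Normexp correction moved the median difference of all probes from 0.04 to -0.09, and that of the member probes from -0.08 to -0.06. It left 170 calls (126 lower, 44 higher), with 0 lower and 0 higher among members. Under it the member calls read -1.03 (Hmgcs1), -0.68 and 0.97 (Sc5d), and the medians were -0.014 for SREBP control and -0.84 for oxysterol breakdown. Hmgcs1 probe A_52_P388072 turned to -0.0495 under normexp, -0.0304 with array weights and -0.0638 without C57BL/6J 3 and BTBR 2, Lrp1 turned to -0.0048 and Soat1 A_52_P651833 to -0.0251 under normexp, and Cyp46a1 to 0.20 without C57BL/6J 3 and BTBR 2. With no filter on dim probes 1 member was higher. In the authors' values the oxysterol median was -0.60. Array weights, whose fit did not converge, gave 3928 calls (1912 lower, 2016 higher). Mice with the same replicate number did not deviate together (correlations 0.03, -0.17 and -0.08), and the replicate block gave 922 calls (588 lower, 334 higher), with 3 members lower and 1 higher. It ended the calls of Sc5d A_51_P418056 (limma adjusted p = 0.0842) and Soat1 A_52_P642167 (0.11). Slide 1 alone gave medians of -0.12 for SREBP control and -1.50 for oxysterol breakdown. Without C57BL/6J 3 and BTBR 2, chosen after seeing the data, 1008 probes were called (647 lower, 361 higher). With 1 value per gene, by the brightest probe or the mean, the medians were -0.0435 (SREBP control) and -0.12 (oxysterol breakdown). Leaving out each mouse gave 858 to 1472 calls (541 to 840 lower, 287 to 704 higher), 3 to 4 members lower and 1 to 2 higher, with medians of -0.10 to -0.0415 for SREBP control, -0.14 to -0.0012 for synthesis, -0.12 to -0.04 for transport, -1.41 to -1.12 for oxysterol breakdown and -0.10 to -0.0208 for all members. Leaving out a mouse moved Cyp46a1 between -0.30 and 0.10 and Soat1 A_52_P651833 between -0.003 and 0.40. Among the member calls, those of both Cyp39a1 probes, Hmgcs1 and the higher Sc5d probe held without each mouse in turn.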

Other observations

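The genes beside the called members were read in RefSeq order, 5 protein-coding genes on each side, a window chosen after the values were seen. Around Hmgcs1 on chromosome 13, 10 of 17 tested probes were called (58.8%, against 5.44% of all probes), of 6 of the 9 tested genes. Nnt, the mitochondrial transhydrogenase, was higher in BTBR at all 3 probes (0.62, 0.61 and 0.58), and Paip1, which binds the poly(A)-binding protein, was higher at 1 of 3 (1.11). 4833420G17Rik was lower at both probes (-2.12 and -1.50), Nim1k, a protein kinase, at 2 of 3, and Tmem267 (-1.10) and Zfp131 (-0.68) at 1 each. The Nim1k probes differed by -1.14 at A_52_P334301 and at least 2.13-fold at A_52_P334542 (limma adjusted p = 0.00344), which was not well above background on any BTBR array. That bound sets the C57BL/6J mean against the lowest signal well above background on each BTBR array. Around Cyp39a1 on chromosome 17, 2 of 17 probes were called, Enpp5 (-0.62) and Enpp4 (-0.59), both lower. Around Sc5d the count was 1 of 12 (an Arhgef12 probe, -0.85, limma adjusted p = 0.0476), and around Soat1 1 of 18 (Fam163a, -0.95). The other Arhgef12 probes differed by 0.09, -0.13 and -0.16 and were not called. Whether the strains' sequence differs under these probes was not tested.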
